A study of Mus musculus with 12 samples.

Results

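The comparison described here set growing oocytes that lack Rnaseh1 against growing oocytes of the floxed control, gene by gene. Every gene whose 6 columns in the deposited table averaged 1 FPKM or more was a member, which gave 10110 of its 25162 genes. The study measured polyadenylated RNA of mouse oocytes in 2 genotypes and 3 stages named NGO, GO and FGO, and its labels list 12 samples, 2 per genotype and stage. The deleted oocytes were labelled KO at stage GO and headed oo-/-, the oocyte deletion of Rnaseh1. Their controls were labelled WT at stage GO and headed fl/fl, the floxed allele without the deletion. KO and WT oocytes of stages NGO and FGO are used beside them. The labels do not spell the stages out; the names are usual short forms for oocytes before, during and after growth. The driver of the deletion, the exons removed, and the age and strain of the mice were not stated in the labels. Each group had a single column of values, in FPKM (fragments scaled to transcript length and to library size) adjusted by the authors to an added spike-in. Differences are therefore given without replicate check, error or p-value. The depth behind a column is unknown.

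RNase H1 degrades RNA that is paired with DNA. Such hybrids form R-loops behind transcribing polymerases, above all at GC-rich and highly transcribed sites, and they also form the primers of mitochondrial DNA replication. A growing oocyte transcribes for its own enlargement and also stores messenger RNA, ribosomes, mitochondria and proteins that the egg and early embryo will use, until transcription stops in the fully grown oocyte. Genes of the zona pellucida, of the subcortical maternal complex and of the NLR family are among the most strongly transcribed at this time.

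Rnaseh1 was listed at 3.10 FPKM in KO GO, against 27.8 FPKM in WT GO, which is 11.2% of the WT value as deposited and 11.8% after rescaling. It had the lowest value in KO relative to WT among all genes named by the rule for large differences. The gene lies on chromosome 12 from position 28649601 to 28659592 (mm10). Of the other 5 genes compared within 1 Mb of it, none differed 2-fold. On one side lay Dcdc2c (1.56 FPKM in KO, 3.10 FPKM in WT) and the ribosomal protein gene Rps7 (7.89 FPKM in KO, 11.7 FPKM in WT). On the other side lay Adi1 (1.64 FPKM in KO, 1.86 FPKM in WT), Trappc12 (10.3 FPKM in KO, 6.34 FPKM in WT) and Eipr1 (22.2 FPKM in KO, 16.1 FPKM in WT). Among the other RNase H genes, the subunits of the heterotrimeric RNase H2 that also removes single ribonucleotides from DNA, Rnaseh2a was listed at 1.84 FPKM in KO GO and 1.68 FPKM in WT GO. The value of Rnaseh2b was 8.74 FPKM in KO GO and 7.82 FPKM in WT GO. Rnaseh2c was at 12.7 FPKM in KO GO and 19.4 FPKM in WT GO, a log2 difference of -0.57. None of these 3 reached 2-fold.

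Both columns carried the markers of oocytes and few of other cells. All 16 oocyte markers were at 1 FPKM or more in KO GO and in WT GO, and their FPKM summed to 24985.5 in KO GO and 22111.5 in WT GO. Of 26 granulosa and cumulus cell markers, 3 reached 1 FPKM in KO GO and 4 in WT GO, with sums of 17.5 FPKM and 21.3 FPKM in KO and WT. Esr2 made up much of this at 9.47 FPKM in KO GO and 8.28 FPKM in WT GO, while Foxl2 stood at 0.110 FPKM in KO GO and 0.121 FPKM in WT GO. Amh stood at 0.139 FPKM in KO GO and 0.0844 FPKM in WT GO. None of 16 theca, stroma and surface markers reached 1 FPKM. Of 12 immune markers 2 reached it in each column, led by C1qb at 12.3 FPKM in KO GO and 24.7 FPKM in WT GO, with Ptprc listed at 0 in both. Of 12 endothelial and blood markers 2 reached it in KO GO and 1 in WT GO, led by Pecam1 at 5.24 FPKM in KO GO and 5.82 FPKM in WT GO. In such bulk samples fewer cells of a type and less RNA per cell cannot be told apart.

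Most genes differed little between the genotypes, and the differences went both ways. A gene is called higher or lower where its log2(FPKM + 1) in KO and WT lay 1 or more apart, a 2-fold line on a scale that understates the change of low genes. As deposited, 96 of 10110 genes were higher in KO GO (0.95%) and 205 were lower (2.03%), together 2.98%. After rescaling, in which every column is scaled so that its median gene equals that of a geometric mean column, 106 were higher (1.05%) and 129 lower (1.28%), together 2.32%. Both scalings called 92 of the same genes higher and 129 of the same genes lower. The choice of scale therefore touched the lower calls more than the higher ones. Over all genes the log2 difference had a median of -0.09 as deposited and of -0.03 rescaled, with quartiles of -0.39 and 0.20 as deposited. In 4214 genes the KO value was the higher one and in 5896 the lower one. After rescaling, 83.4% of genes lay within 1.5-fold.

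**Figure D1:**
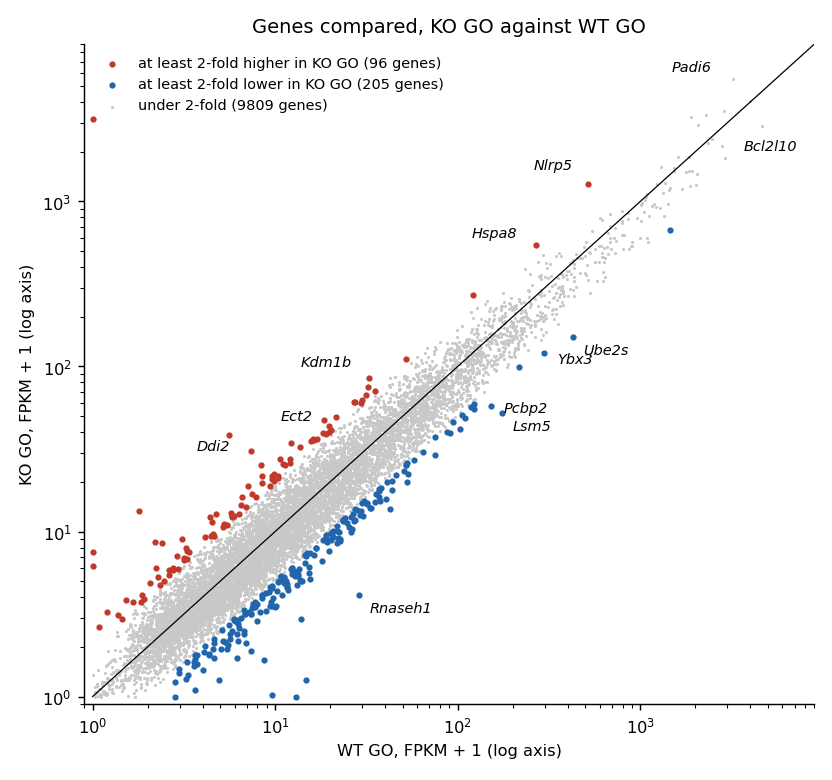
FPKM + 1 of 10110 genes in KO GO (vertical log axis) and WT GO (horizontal log axis), 1 point per gene, with the line of equal values. The 96 genes at least 2-fold higher in KO GO lie above the line and the 205 lower ones below it, at all levels of expression. Rnaseh1 (log2 difference -2.81) lies below the line, and genes such as Gm29679 (-3.71) and Ndufs5-ps (-3.55) lie farther from it.

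The genes next to the 2-fold line show how little separates a called gene from one that was not. Just inside on the higher side were Exoc6, a subunit of the exocyst, at 17.8 FPKM in KO GO and 8.42 FPKM in WT GO and Stat4 at 9.90 FPKM in KO GO and 4.44 FPKM in WT GO. Just outside were Optn, an autophagy receptor, at 27.8 FPKM in KO GO and 13.4 FPKM in WT GO and Gpr108 at 21.7 FPKM in KO GO and 10.4 FPKM in WT GO. On the lower side Wdr26 at 10.8 FPKM in KO GO and 22.6 FPKM in WT GO and the receptor Ryk at 14.3 FPKM in KO GO and 29.7 FPKM in WT GO lay just inside. Ing1 at 12.8 FPKM in KO GO and 26.6 FPKM in WT GO and Mtch1 at 1.51 FPKM in KO GO and 4.01 FPKM in WT GO lay just outside.

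The most abundant messages of the oocyte were largely shared, with some reordering. Of the 25 genes with the highest FPKM in each column 20 were the same, and of the top 100 the same 89. The 25 genes of highest mean took 15.9% of all FPKM in KO GO and 14.03% in WT GO. Without Rn45s, the ribosomal RNA precursor listed at 3173 FPKM in KO GO and at 0 in WT GO, the other 24 took 15.2% in KO GO and 14.03% in WT GO. Padi6, a protein of the oocyte's cytoplasmic lattices, ranked first in KO GO and 3 in WT GO, at 5524 FPKM in KO and 3216 FPKM in WT. Bcl2l10, an oocyte member of the Bcl2 family, ranked 8 in KO GO and first in WT GO, at 2880.5 FPKM in KO and 4633 FPKM in WT. None of these 24 genes reached 2-fold. Among them the higher values in KO belonged to Zbed3 (log2 difference 0.77), Nlrp14 (0.54), Tle6 (0.48), Zp1 (0.31) and Zp2 (0.28). The zona gene Zp3 was nearly level at 4065 FPKM in KO GO, against 3980.3 FPKM in WT GO. Lower values in KO belonged to Btg4, an adaptor for deadenylation of maternal messages (-0.69), Elobl (-0.67), Hsp90aa1 (-0.59), Ftdc2 (-0.50), Bpgm (-0.49) and the linker histone H1f8 (-0.38).

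For large differences 60 genes were named, up to 30 in each direction, out of 67 higher and 94 lower genes that met the rule. All had at least 5 FPKM in the higher GO column, at least 0.5 FPKM in the lower one and a call in both scalings. They are ordered here by what each is known to do, and no role was tested for being more frequent. Of the 30 higher genes, several act in cell division, the cortex and polarity. Ect2, which activates RhoA for cytokinesis, was at 33.3 FPKM in KO GO, against 11.2 FPKM in WT GO. Llgl1, a basolateral polarity protein, was at 24.3 FPKM in KO GO, against 7.34 FPKM in WT GO. Lcp1, an actin bundling protein, was at 35.5 FPKM in KO GO and 15.1 FPKM in WT GO. Smc1b, the cohesin subunit that holds meiotic chromatids together, was at 13.5 FPKM in KO GO and 5.47 FPKM in WT GO. Krt79, a keratin, and Myot, a sarcomeric protein, stood in the same set without a textbook role in oocytes, at 15.8 FPKM in KO GO and 6.47 FPKM in WT GO and 59.8 FPKM in KO GO and 26.2 FPKM in WT GO.

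Genes of chromatin, nuclear transport and RNA follow. Kdm1b, which removes H3K4 methylation before maternal imprints are set, was at 84.6 FPKM in KO GO, against 31.6 FPKM in WT GO. Top3b, a topoisomerase that acts on DNA and RNA, was at 24.8 FPKM in KO GO, against 9.98 FPKM in WT GO. Cnot3, a subunit of the CCR4-NOT deadenylase, was at 15.1 FPKM in KO GO and 5.56 FPKM in WT GO. Hmga1, an architectural chromatin protein, was at 26.5 FPKM in KO GO and 11.1 FPKM in WT GO. Transport through the nuclear pore was represented by Nup93, of its inner ring, at 48.1 FPKM in KO GO and 20.6 FPKM in WT GO. Rangap1, which drives the Ran cycle in the cytoplasm, was at 21.5 FPKM in KO GO and 8.82 FPKM in WT GO. The zinc finger gene Zfp473 was at 31.4 FPKM in KO GO and 12.7 FPKM in WT GO. The neighbours on chromosome 17, Zfp960 at 6.91 FPKM in KO GO and 2.25 FPKM in WT GO and Zfp97 at 11.3 FPKM in KO GO and 3.38 FPKM in WT GO, are near-identical copies whose reads the counting may have split.

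The rest include genes known from stress responses, signalling and protein turnover. Ddi2, an aspartic protease that activates the proteasome regulator Nfe2l1, had the largest log2 difference of the 30, 2.05, at 29.7 FPKM in KO GO and 6.398 FPKM in WT GO. Xbp1, a transcription factor of the unfolded protein response, was at 10.4 FPKM in KO GO and 3.50 FPKM in WT GO. Mdm2, which marks p53 for degradation, stood at 73.7 FPKM in KO GO and 31.3 FPKM in WT GO. Usp8, a deubiquitinase of endosomes, was at 20.7 FPKM in KO GO and 8.61 FPKM in WT GO. Fbxw5, a substrate receptor of a cullin ligase, was at 11.8 FPKM in KO GO and 3.77 FPKM in WT GO. Signalling genes were Ptp4a1, a phosphatase, at 17.96 FPKM in KO GO and 6.07 FPKM in WT GO and Plcg2, a phospholipase C, at 12.03 FPKM in KO GO and 4.73 FPKM in WT GO. Dusp5, a nuclear phosphatase of ERK, was at 6.12 FPKM in KO GO and 1.89 FPKM in WT GO. Hvcn1, a proton channel, was at 20.8 FPKM in KO GO and 7.51 FPKM in WT GO. The remaining 6 were the Rab regulator Tbc1d8 (46.2 FPKM in KO, 17.6 FPKM in WT), Maged1 (26.4 FPKM in KO, 9.61 FPKM in WT), the ciliary transport gene Wdr19 (5.01 FPKM in KO, 1.23 FPKM in WT), S100a16 (7.65 FPKM in KO, 1.19 FPKM in WT), Ifitm10 (7.57 FPKM in KO, 1.41 FPKM in WT) and Nlrp5, described with its complex below. The log2 differences of the 30 ran down to 1.16.

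The 30 genes named on the lower side included Rnaseh1 and several genes of small proteins. Lsm5, of a ring of proteins on U6 RNA, stood at 51.1 FPKM in KO GO, against 173 FPKM in WT GO, and Rps28, of the small ribosomal subunit, was at 1.40 FPKM in KO GO, against 5.71 FPKM in WT GO. Cox6b1, of respiratory complex IV, was at 2.47 FPKM in KO GO, against 8.95 FPKM in WT GO. The small integral membrane protein genes Smim26 and Smim27 were at 1.11 and 0.890 FPKM in KO GO, against 5.96 and 6.41 FPKM in WT GO. Genes that act on RNA were Pcbp2, a poly(C)-binding protein, at 56.8 FPKM in KO GO and 150.3 FPKM in WT GO and Pabpn1, the nuclear poly(A)-binding protein, at 8.96 FPKM in KO GO and 25.1 FPKM in WT GO. Ube2s, which extends ubiquitin chains for the anaphase-promoting complex, was at 150.4 FPKM in KO GO, against 426 FPKM in WT GO. Ube2s and Lsm5 were the most abundant of the 30 in WT GO.

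Transcriptional regulators among the lower genes were the repressor Zbtb18 at 12.7 FPKM in KO GO and 41.5 FPKM in WT GO and Zbtb33, which binds methylated CpG, at 4.03 FPKM in KO GO and 13.1 FPKM in WT GO. Zfp770 was at 1.18 FPKM in KO GO and 5.22 FPKM in WT GO. Homeobox genes were Emx2 at 2.31 FPKM in KO GO and 7.86 FPKM in WT GO and Rhox8 at 0.703 FPKM in KO GO and 5.15 FPKM in WT GO. Drap1, part of the negative cofactor that binds the TATA-binding protein, was at 28.1 FPKM in KO GO and 73.9 FPKM in WT GO. Enzymes, carriers and signalling proteins followed. Arf6, a small GTPase of membrane traffic and cortical actin, was at 7.70 FPKM in KO GO and 21.6 FPKM in WT GO. Ctdnep1, a phosphatase of the nuclear envelope, was at 5.60 FPKM in KO GO and 16.97 FPKM in WT GO. Fkbp5, a co-chaperone of Hsp90, was at 18.9 FPKM in KO GO and 51.6 FPKM in WT GO. Mapkapk5, a stress kinase, was at 4.01 FPKM in KO GO and 12.9 FPKM in WT GO, and Pnp2, a purine nucleoside phosphorylase, at 2.56 FPKM in KO GO and 8.37 FPKM in WT GO. Slc30a1, a zinc exporter, was at 1.38 FPKM in KO GO and 5.20 FPKM in WT GO. The others were Ocm (3.13 FPKM in KO, 9.84 FPKM in WT), Epsti1 (3.75 FPKM in KO, 12.1 FPKM in WT), Serpinb1c (3.40 FPKM in KO, 10.7 FPKM in WT), Olfr288 (1.87 FPKM in KO, 6.94 FPKM in WT), Clec2f (1.97 FPKM in KO, 12.8 FPKM in WT), Tmem267 (4.16 FPKM in KO, 14.6 FPKM in WT), Bex4 (2.56 FPKM in KO, 9.11 FPKM in WT), Nkain1 (2.56 FPKM in KO, 8.58 FPKM in WT) and Prr18 (7.46 FPKM in KO, 20.9 FPKM in WT). Log2 differences of the 30 lay between -2.81 and -1.37.

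How reads were assigned limits some of these values. Of the 60 named genes 8 have a near-identical copy in GENCODE M21, namely Hmga1, Lsm5, Mapkapk5, Olfr288, Pnp2, Rps28, Zfp960 and Zfp97, as have 48 of the 301 called genes. In 21 of the 60 and 95 of the 301 another RefSeq gene overlaps, for example Rsc1a1 with Ddi2, Dek with Kdm1b, Flii with Llgl1, Topors with Smim27 and Fam118a with Smc1b. The library kit as labelled does not mark strand, so reads from a stretch where exons of different genes coincide cannot be told apart. Overlap was taken from whole gene spans, introns included, and whether exons coincide was not checked. The counts of copies and overlaps have no share over all genes beside them, so they do not set called genes apart.

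After rescaling, the genes called at GO mostly leaned the same way in the separate oocytes of the earlier and later stage. Of the 106 genes higher after rescaling at GO, 91 (85.8%) had a higher rescaled value in KO at NGO, against 51.3% of all genes, and 99 (93.4%) at FGO, against 52.1%. Of the 129 lower genes 105 (81.4%) were lower in KO at NGO, against 48.4% of all genes, and 110 (85.3%) at FGO, against 47.9%. As deposited, where KO FGO was high as a whole, the picture at FGO was another. Of the 96 genes higher at GO 95.8% were higher at FGO, against 95.4% of all genes, and of the 205 lower genes 94 (45.9%) were lower, against 4.56% of all genes, with a median log2 difference of 0.09. As deposited at NGO 76% of the higher genes were higher, against 29.6% of all genes, and 86.3% of the lower genes were lower, against 70.1%. Rescaled sizes were smaller at NGO. The higher genes had median rescaled log2 differences of 0.31 at NGO and 0.67 at FGO, and the lower genes -0.26 at NGO and -0.71 at FGO. The NGO and FGO columns came from other oocytes, but the libraries were made alike and the rescaling used all columns. Across all 10110 genes the rescaled GO difference had a Spearman rho of 0.47 with the NGO difference and 0.59 with the FGO difference, given as a description of genes that share length, composition and processing. Rescaled calls at the other stages were fewer at NGO, with 13 higher (0.129%) and 36 lower (0.356%). At FGO they numbered 170 higher (1.68%) and 95 lower (0.94%), together 2.62%. As deposited, 3 genes were higher (0.0297%) and 33 lower (0.326%) at NGO, together 0.356%, and 2612 were higher (25.8%) and 16 lower (0.158%) at FGO.

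**Figure D2:**
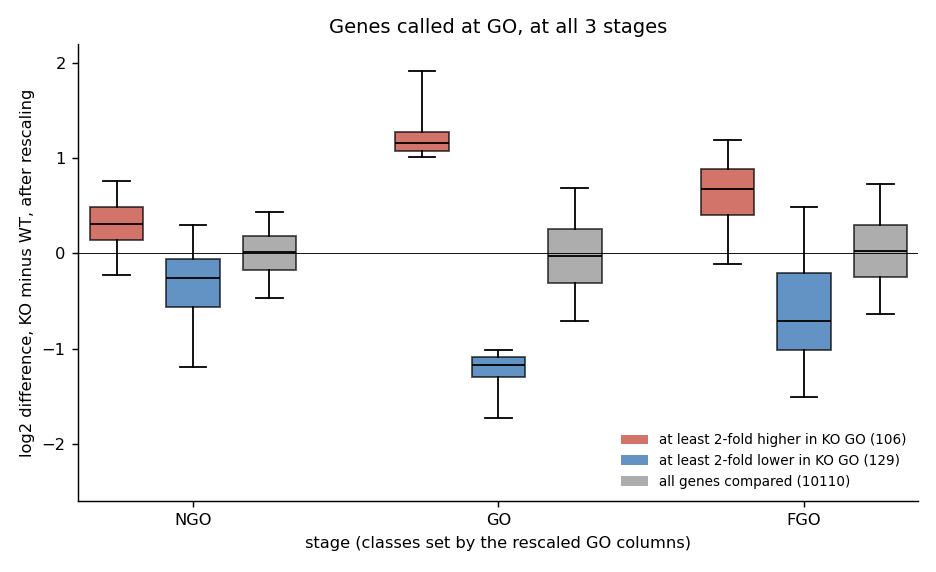
Log2 difference of rescaled FPKM + 1, KO minus WT, at NGO, GO and FGO for the 106 genes higher at GO, the 129 lower at GO and all 10110 genes. Boxes give the median and quartiles and whiskers the 5th and 95th percentiles; at GO the 2 classes are apart because they were chosen there, and at NGO and FGO their medians keep the same sign.

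After rescaling 14 genes were higher at both GO and FGO, 13.2% of the GO list and 8.24% of the FGO list. Ddi2 was one, at 41.5 FPKM in KO FGO and 9.15 FPKM in WT FGO in the later stage. Kdm1b was in the same class at 54.02 FPKM in KO FGO and 11.04 FPKM in WT FGO, while its rescaled log2 difference at NGO was 0.37. Ect2 likewise differed little at NGO (7.11 FPKM in KO, 7.30 FPKM in WT) and stood at 47.6 FPKM in KO FGO and 11.9 FPKM in WT FGO. Several others were genes whose WT value declined with growth. Maged1 was at 7.27 FPKM in KO FGO and 1.13 FPKM in WT FGO. Myot was at 16.4 FPKM in KO FGO and 3.24 FPKM in WT FGO, and Lcp1 at 22.8 FPKM in KO FGO and 5.15 FPKM in WT FGO. Xbp1, Zfp473, Slc25a36, a mitochondrial pyrimidine carrier, and Hadh, an enzyme of fatty acid oxidation, completed the named ones. Hadh was at 8.70 FPKM in KO GO and 3.54 FPKM in WT GO, and Slc25a36 at 5.69 FPKM in KO GO and 2.16 FPKM in WT GO.

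On the lower side 34 genes were called at both GO and FGO after rescaling, 26.4% of the GO list and 35.8% of the FGO list. Messages that bind or process RNA stood among them, such as Ybx3, a cold shock domain protein that binds stored RNA, at 120.2 FPKM in KO GO and 297 FPKM in WT GO and at 192 FPKM in KO FGO and 299 FPKM in WT FGO. Pcbp2, Pabpn1, Hnrnpd and Snrpe were further RNA-binding members. Respiratory genes of this class were Cox6b1, Cox7c, Cox17, a copper chaperone of complex IV, and Uqcrh. Rab21, a GTPase of endosomes, was at 54.1 FPKM in KO GO and 121 FPKM in WT GO and at 116 FPKM in KO FGO and 167 FPKM in WT FGO. Fmn2, the formin that moves the oocyte spindle, was at 16.9 FPKM in KO GO and 42.8 FPKM in WT GO and at 54.9 FPKM in KO FGO and 74.1 FPKM in WT FGO. Gli3, a Hedgehog pathway transcription factor, was at 6.67 FPKM in KO GO and 18.7 FPKM in WT GO. It was lower in both scalings at FGO too, as were Rnaseh1, Rnaset2a and Smim4. As deposited the FGO column of KO was high as a whole, with 25.8% of genes called higher, so most of these 34 were called there after rescaling alone.

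At NGO 9 of the 129 lower genes were also called lower, 6.98% of the GO list and 25% of the NGO list. Rnaset2a, a lysosomal ribonuclease, was lower at all 3 stages, with 4.37 FPKM in KO GO, against 11.8 FPKM in WT GO, and 2.10 FPKM in KO NGO, against 13.02 FPKM in WT NGO. It has a near-identical copy, Rnaset2b, so that reads may have been split. Tcstv1, a gene of the cleaving embryo, was at 47.8 FPKM in KO GO and 109 FPKM in WT GO, and at 2.38 FPKM in KO NGO and 8.95 FPKM in WT NGO. Cphx2, a homeobox gene with near-identical copies, was at 1.49 FPKM in KO GO and 5.73 FPKM in WT GO. Prr18 and Wdfy1 were at 0.200 and 0.107 FPKM in KO NGO, against 0.970 and 1.25 FPKM in WT NGO. Erdr1 was the sole gene called higher at both GO and NGO after rescaling, at 2.28 FPKM in KO GO and 0.198 FPKM in WT GO, and it too has a near-identical copy.

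The direction of a gene in KO GO was related to its course in normal growth. Genes were binned by the rescaled change in WT oocytes between NGO and FGO, which uses no GO value of the gene. The 434 genes at least 4-fold higher in WT FGO had a median rescaled log2 difference of -0.45 in KO GO, and 12.2% of them were called lower as deposited, against 2.03% of all genes. The 208 genes at least 4-fold lower in WT FGO had a median of 0.24, and 7.21% of them were called higher, against 0.95%. The bins between followed in order, with medians of 0.15, 0.07, -0.09 and -0.21. The medians thus moved with the WT change, while the genes within a bin went both ways and most were not called. Among the 205 lower genes 88 were at least 2-fold higher in WT FGO than in WT NGO, 42.9% against 14.1% of all genes. Among the 96 higher genes 36 were at least 2-fold lower in WT FGO, 37.5% against 13.3%. The Spearman rho between the GO difference and the WT change was -0.33 over 10110 genes. Whether the KO GO and WT GO oocytes were at the same point of growth was not tested.

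Single genes show the same relation and its exceptions. Epsti1 had 0.569, 12.1 and 73.2 FPKM in WT at NGO, GO and FGO, and 3.75 FPKM in KO GO. Olfr288, which reached 66.8 FPKM in WT FGO, was at 1.87 FPKM in KO GO, against 6.94 FPKM in WT GO. Mbd3l2, at 138 FPKM in WT FGO, was at 11.4 FPKM in KO GO, against 29.4 FPKM in WT GO. Ftdc1, a ferritin-domain gene that was the most abundant of the lower genes, was at 674 FPKM in KO GO, against 1455 FPKM in WT GO, and climbed in WT to 2479.8 FPKM at FGO. Maged1 ran the other way, with 32.2, 9.61 and 1.13 FPKM in WT at the 3 stages and 26.4 FPKM in KO GO. Exceptions stood on both sides. Zbtb18, lower in KO GO, was at 14.01 FPKM in WT NGO and 16.2 FPKM in WT FGO, and S100a16, higher in KO GO, climbed in WT to 14.4 FPKM at FGO.

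**Figure D3:**
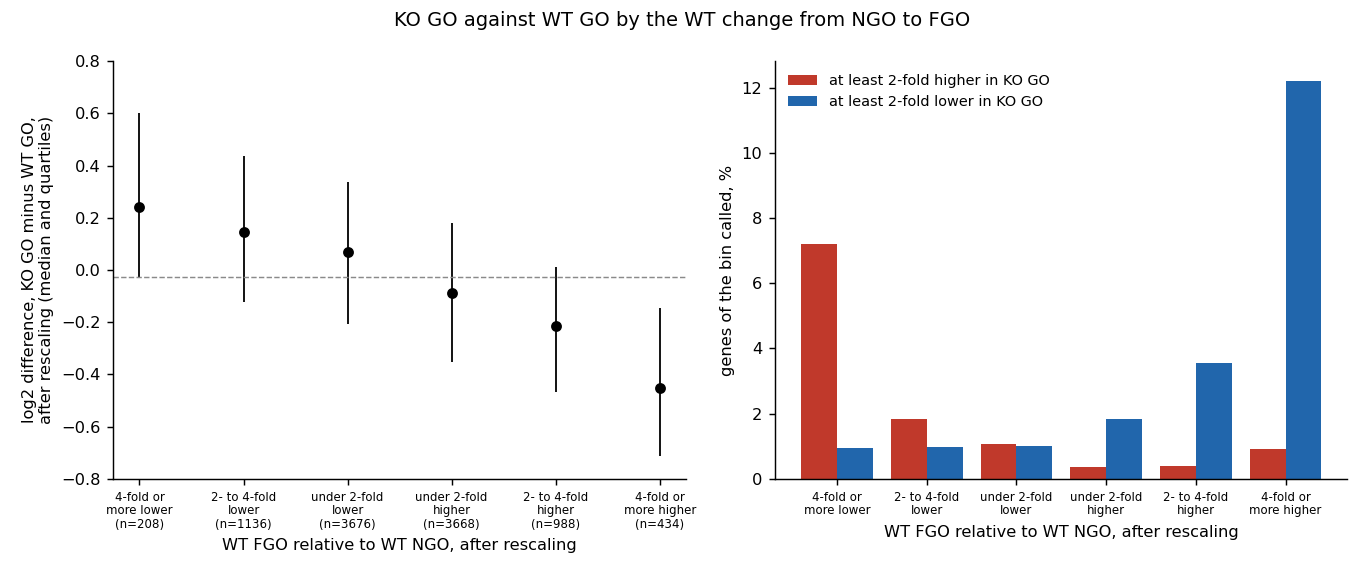
Left, rescaled log2 difference between KO GO and WT GO (points, median; lines, quartiles) in 6 bins of genes by the WT change from NGO to FGO, with the median of all genes dashed; right, the percentage of each bin called higher or lower in KO GO as deposited. Medians descend from 0.24 to -0.45 across the bins, and lower calls reach 12.2% in the last bin.

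Gene lists of pathways and complexes were described by counts and medians. For each, the number of members above the median gene is given, a rank that no scaling of the columns changes much, and by construction equal numbers of all genes lie on either side. Medians are log2 differences, KO GO minus WT GO, and over all genes they were -0.09 as deposited and -0.03 rescaled; for each list the rescaled value follows in brackets. Calls are read against 0.95% higher and 2.03% lower. Of 59 lists, 9 had a median that changed sign with rescaling and 13 with equal column totals. Of 4 lists near the ends of the range, each kept its side at FGO and lay closer to 0 at NGO. The subcortical maternal complex had rescaled medians of -0.02 and 0.32 at NGO and FGO, and complexes II to V of the respiratory chain had -0.07 and -0.50. Tubulins had 0.09 and 0.39, and cytosolic ribosomal proteins -0.17 and -0.40, at NGO and FGO. The lowest list at GO, small integral membrane proteins, went otherwise, with -0.35 at NGO and -0.20 at FGO.

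**Figure D4:**
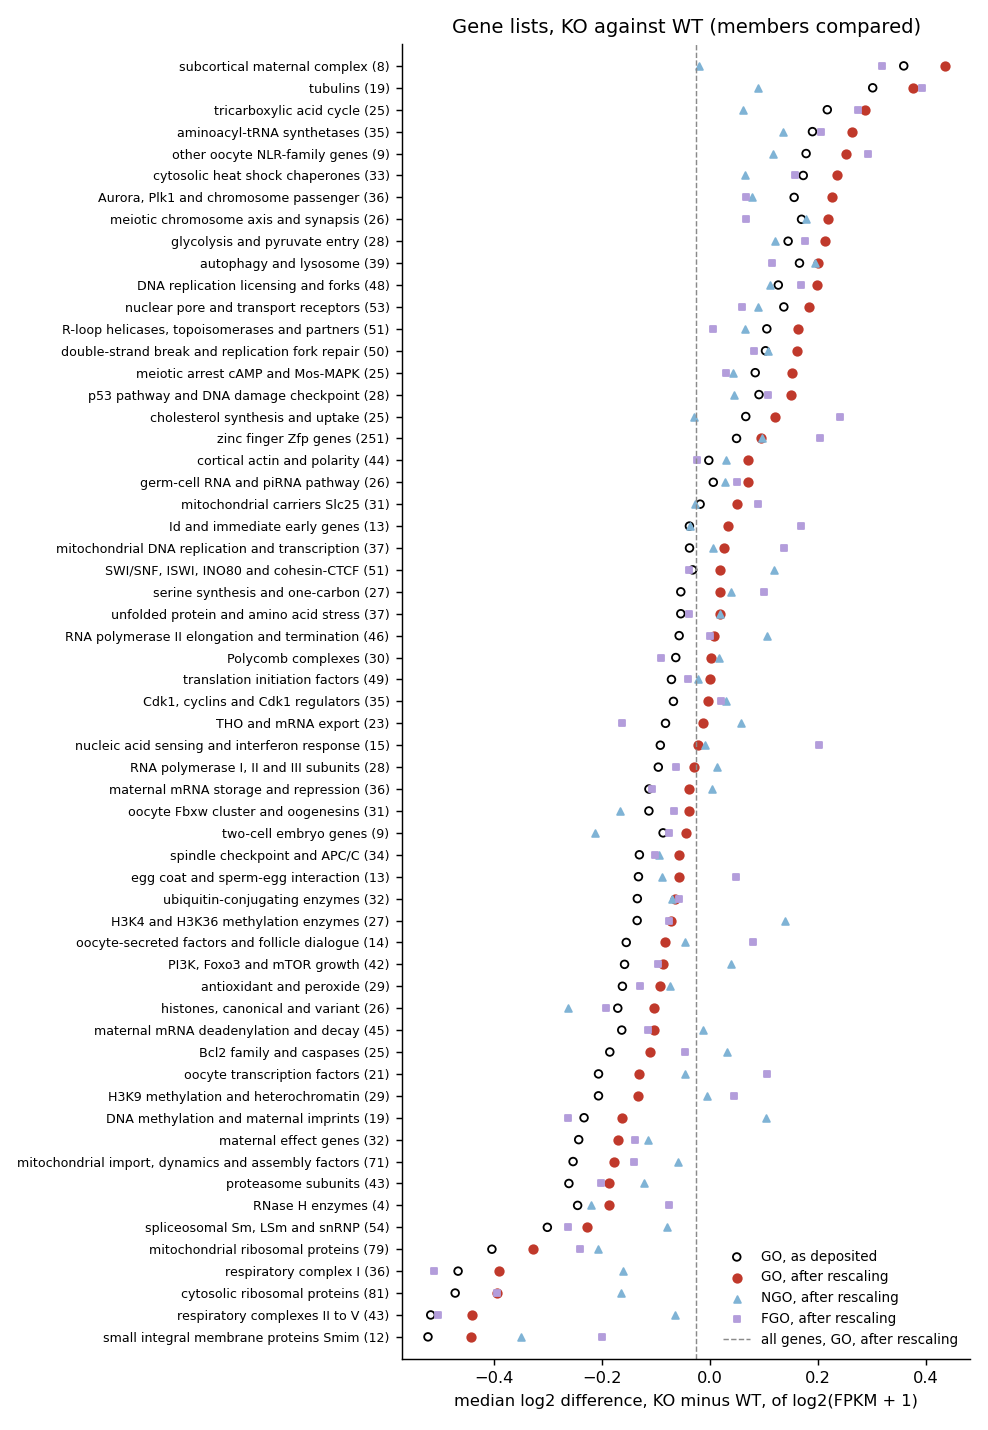
Median log2 difference, KO minus WT, of 59 gene lists (members compared in brackets), at GO as deposited (open circles) and after rescaling (red), and at NGO (triangles) and FGO (squares) after rescaling; the dashed line is the median of all genes. Lists of small mitochondrial, ribosomal and membrane proteins lie lowest at -0.33 to -0.44, and the subcortical maternal complex and the tubulins lie highest at 0.43 and 0.38.

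Among oocyte genes, the subcortical maternal complex, which organises the egg cortex and is needed beyond the first cleavages, stood highest. Of its 8 members 6 lay above the median gene, with a median of 0.36 (0.43 rescaled). Nlrp5 was the sole called member, higher at 1274 FPKM in KO GO, against 518 FPKM in WT GO. Padi6, Zbed3 and Tle6 had differences of 0.78, 0.77 and 0.48, whereas Ooep and Khdc3 had -0.49 and -0.42. In the other oocyte NLR genes 6 of 9 lay above the median gene, with a median of 0.18 (0.25 rescaled). Nlrp4g was called higher at 269 FPKM in KO GO, against 120.4 FPKM in WT GO, and Nlrp4e, which has near-identical copies, was at 41.4 FPKM in KO GO and 21.4 FPKM in WT GO. The egg coat and sperm-egg interaction list had 6 of 13 members above and no call, with a median of -0.13 (-0.06 rescaled). As drawn up, the list also held Ldhb and Zar1, which its name does not cover. Within it the oocyte-secreted proteins Oosp1 and Oosp3 were at 517 and 121 FPKM in KO GO, against 872 and 201 FPKM in WT GO. Wider lists of the oocyte lay closer to all genes or below them. Maternal effect genes had 13 of 32 above, with a median of -0.24 (-0.17 rescaled), Nlrp5 as its sole call, and Bnc1 and Yap1, a coactivator of the Hippo pathway, at 57.8 and 24.4 FPKM in KO GO, against 112 and 46.98 FPKM in WT GO.

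Oocyte transcription factors had 8 of 21 members above the median gene, with a median of -0.21 (-0.13 rescaled). Stat3 was called higher at 65.9 FPKM in KO GO, against 30.6 FPKM in WT GO, and Sall4, a zinc finger factor of oocytes and early embryos, was at 161 FPKM in KO GO, against 305 FPKM in WT GO. The oocyte-secreted factors and follicle dialogue list held no call, with 5 of 14 above and a median of -0.16 (-0.08 rescaled). Kit, the receptor that the follicle's ligand acts on, was at 86.3 FPKM in KO GO and 58.6 FPKM in WT GO, and Gdf9, a growth factor sent to the granulosa, at 1860.0 FPKM in KO GO and 1609.7 FPKM in WT GO. In the Fbxw cluster and oogenesins 14 of 31 lay above, with a median of -0.11 (-0.04 rescaled) and no call. Genes of the cleaving embryo numbered 9, with 2 called lower, Tcstv1 and Tcstv3, both with near-identical copies, and a median of -0.09 (-0.05 rescaled). Tcstv3 was at 22.4 FPKM in KO GO and 50.1 FPKM in WT GO.

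Chromosome and division genes tended to lie above the median gene. Of 36 genes of Aurora kinases, Plk1 and the chromosome passenger complex 27 did, with a median of 0.16 (0.23 rescaled). Besides Ect2, Plk1 was at 83.7 FPKM in KO GO and 41.5 FPKM in WT GO, just under the 2-fold line as deposited and over it after rescaling. Prc1, which bundles the central spindle, was at 112 FPKM in KO GO and 59.1 FPKM in WT GO. Tacc3, a spindle pole protein, was at 140.1 FPKM in KO GO and 78.95 FPKM in WT GO. Tubulins had 14 of 19 above, with a median of 0.30 (0.38 rescaled), and no call. The alpha tubulin genes Tuba1c and Tuba1b were at 239 and 197 FPKM in KO GO, against 141 and 120.3 FPKM in WT GO. They are near-identical copies of each other, so that reads may have been shared between them. The gamma tubulin Tubg2 was at 176 FPKM in KO GO and 104 FPKM in WT GO. The meiotic chromosome axis and synapsis list had 18 of 26 above, with a median of 0.17 (0.22 rescaled) and 2 calls, Smc1b and Tex15. Rad21l, a meiotic cohesin subunit, was at 4.97 FPKM in KO GO and 2.13 FPKM in WT GO.

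Regulators of the cell cycle went both ways. In the spindle checkpoint and anaphase-promoting complex list 16 of 34 lay above, with a median of -0.13 (-0.06 rescaled). Anapc5, a scaffold subunit, was called higher at 42.8 FPKM in KO GO, against 18.7 FPKM in WT GO, and Ube2s, described above, lower. In the Cdk1 and cyclin list 18 of 35 lay above, with a median of -0.07 (0.00 rescaled). Ccnd3, a D-type cyclin, was called higher at 24.3 FPKM in KO GO, against 10.4 FPKM in WT GO. Cdc25a, a phosphatase that activates Cdk, was called lower as deposited alone, at 17.4 FPKM in KO GO, against 37.2 FPKM in WT GO. The meiotic arrest, cAMP and Mos-MAPK list held no call, with 16 of 25 above and a median of 0.08 (0.15 rescaled). Gnas, the stimulatory G protein of meiotic arrest, was at 104 FPKM in KO GO and 63.1 FPKM in WT GO. Cortical actin and polarity genes had 27 of 44 above, with a median of 0.00 (0.07 rescaled). Their calls were Llgl1 and Actb higher and Fmn2 lower, and Actb, the cytoplasmic actin, was at 34.8 FPKM in KO GO, against 15.4 FPKM in WT GO.

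Lists of short messages lay lowest, among them the subunits of the ribosome and the respiratory chain, and transcript length is given beside them, since short transcripts were low as a class. Respiratory complexes II to V had 36 of 43 members below the median gene, with a median of -0.52 (-0.44 rescaled). Its calls were 4 lower and 0 higher, Cox6b1, Cox7c, Uqcrh and Uqcr11. Complex I had 29 of 36 below, with a median of -0.47 (-0.39 rescaled), and 1 call, Ndufc1 at 19.3 FPKM in KO GO, against 42.7 FPKM in WT GO. Cytosolic ribosomal proteins had 72 of 81 below, with a median of -0.47 (-0.39 rescaled), with Rps28, Rps15, Rpl41 and Rps18 called lower in both scalings. All 4 of these genes have near-identical copies, so that reads may have been split. Mitochondrial ribosomal proteins had 67 of 79 below and no call, with a median of -0.40 (-0.33 rescaled). The median transcript of these 4 lists was 838, 977, 937 and 1316 nt long, against 2960 nt for all genes. With a smooth trend on transcript length removed from the rescaled differences, the medians were -0.06 for complexes II to V, -0.10 for complex I, -0.10 for cytosolic and -0.11 for mitochondrial ribosomal proteins. None of the calls in these 4 lists was made without the trend, which was fitted on all genes, these lists included.

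Small integral membrane proteins had the lowest median of all lists, -0.52 (-0.44 rescaled), and -0.19 without the length trend. Of the 12 members 10 lay below the median gene, and the 3 lower calls, Smim4, Smim26 and Smim27, were also made without the trend. Smim4 was listed at 0 in KO GO and at 1.81 FPKM in WT GO. Spliceosomal Sm and LSm proteins had 34 of 54 below, with a median of -0.30 (-0.23 rescaled), and -0.04 without the length trend. Lsm5 and Snrpe were lower there, Snrpe at 0.932 FPKM in KO GO, against 4.47 FPKM in WT GO, while Sf3a2 was higher as deposited alone, at 1.97 FPKM in KO GO and 0.454 FPKM in WT GO. Proteasome subunits had 28 of 43 below and no call, with a median of -0.26 (-0.19 rescaled), and -0.08 without the length trend. Mitochondrial import, dynamics and assembly factors had 50 of 71 below, with a median of -0.25 (-0.18 rescaled), and -0.11 without the length trend. Its 3 lower calls were Cox17, Timm8b, a small chaperone of the intermembrane space, and Ndufaf8, which missed the line after rescaling.

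Several lists of enzymes lay on the other side. Tricarboxylic acid cycle genes had 18 of 25 above the median gene, with a median of 0.22 (0.29 rescaled). Aco1, an aconitase, was at 16.5 FPKM in KO GO and 8.06 FPKM in WT GO, and Sdha, the catalytic subunit of succinate dehydrogenase, at 77.3 FPKM in KO GO and 48.8 FPKM in WT GO. Glycolysis and pyruvate entry had 25 of 28 above, with a median of 0.14 (0.21 rescaled). Pkm, the pyruvate kinase gene, was at 225 FPKM in KO GO and 149 FPKM in WT GO. Aminoacyl-tRNA synthetases had 32 of 35 above, with a median of 0.19 (0.26 rescaled). Lars2, the mitochondrial leucine enzyme, stood against its list and was called lower at 10.53 FPKM in KO GO, against 25.99 FPKM in WT GO. Without the length trend these 3 medians were 0.31, 0.20 and 0.24. None of their members was called higher. Messages of nuclear genes for the mitochondrion were thus uneven. Most listed subunits of the respiratory chain lay below the median gene and most enzymes of the cycle above it. Without the length trend, 21 of 36 complex I members and 28 of 43 members of complexes II to V lay below 0. Among the cycle genes 6 of 25 did.

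Other metabolic lists were nearer to all genes. Cholesterol synthesis and uptake had 18 of 25 above, with a median of 0.07 (0.12 rescaled), and Sqle, the squalene epoxidase gene, at 13.1 FPKM in KO GO and 6.24 FPKM in WT GO, called higher after rescaling alone. Serine synthesis and one-carbon genes had 18 of 27 above, with a median of -0.05 (0.02 rescaled). Amd1, of polyamine synthesis, was listed near 0 in KO GO and has a near-identical copy, Amd2. Other enzymes of the same path were not called, Odc1 at 46.5 FPKM in KO GO and 88.9 FPKM in WT GO and Sms at 25.8 FPKM in KO GO and 45.3 FPKM in WT GO. Mitochondrial carriers had 19 of 31 above, with a median of -0.02 (0.05 rescaled) and Slc25a36 as the sole call. Mitochondrial DNA replication and transcription genes, among which RNase H1 acts, had 21 of 37 above, with a median of -0.04 (0.03 rescaled). Besides Rnaseh1 itself, Atad3a, a membrane ATPase tied to nucleoids, was called higher at 11.3 FPKM in KO GO, against 4.77 FPKM in WT GO and has a near-identical copy. Lonp1, the matrix protease, was at 16.5 FPKM in KO GO and 9.45 FPKM in WT GO, and Elac2, which trims mitochondrial tRNAs, at 20.7 FPKM in KO GO and 11.1 FPKM in WT GO. Antioxidant genes had 13 of 29 above, with a median of -0.16 (-0.09 rescaled). Their calls were Hmox1, which degrades haem, higher at 4.44 FPKM in KO GO, against 1.62 FPKM in WT GO, and Gclc, of glutathione synthesis, lower at 1.76 FPKM in KO GO, against 5.26 FPKM in WT GO.

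Genes that handle R-loops, DNA breaks and replication were mostly a little above the median gene. R-loop helicases, topoisomerases and partners had 33 of 51 above, with a median of 0.10 (0.16 rescaled) and 1 call, Top3b. At NGO and FGO the rescaled median of this list was 0.07 and 0.01. Ddx41, a helicase, was at 33.2 FPKM in KO GO and 19.4 FPKM in WT GO, and Srsf1, a splicing factor, at 7.18 FPKM in KO GO and 13.5 FPKM in WT GO. Double-strand break and fork repair had 35 of 50 above, with a median of 0.10 (0.16 rescaled). Lig4, the end-joining ligase, was called lower as deposited alone, at 17.2 FPKM in KO GO, against 35.9 FPKM in WT GO, and Xrcc3 was at 32.3 FPKM in KO GO and 17.7 FPKM in WT GO. DNA replication licensing and forks had 33 of 48 above, with a median of 0.13 (0.20 rescaled). Mcm6 was at 44.1 FPKM in KO GO and 24.5 FPKM in WT GO, and Pcna, called lower as deposited alone, at 2.35 FPKM in KO GO, against 5.72 FPKM in WT GO. The median transcript of these 3 lists was 4129, 3342.5 and 2879 nt long. Without the length trend their medians were 0.17, 0.18 and 0.20. Among all genes compared, those of 9 or more exons had rescaled medians of 0.19, 0.11 and -0.05 in the successive length classes over 2000 nt. Whether these lists differ from genes of like length and exon number was not tested. In the p53 and checkpoint list 18 of 28 lay above, with a median of 0.09 (0.15 rescaled), and Mdm2 was the sole call. Perp, a p53 target, was at 5.75 FPKM in KO GO and 2.82 FPKM in WT GO. Bcl2 family and caspase genes had 10 of 25 above, with a median of -0.19 (-0.11 rescaled) and no call. Nucleic acid sensing and interferon genes had 7 of 15 above, with a median of -0.09 (-0.02 rescaled). Its calls were Ifitm10 higher and Rnaset2a, which has a near-identical copy, lower. Mavs, the adaptor of RNA sensing, was at 16.5 FPKM in KO GO and 9.94 FPKM in WT GO.

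Most lists of transcription and RNA handling lay near all genes and held single called genes, while nuclear pore and transport receptors leaned above the median gene. RNA polymerase subunits had 14 of 28 above, with a median of -0.10 (-0.03 rescaled). Polr2m was called higher at 20.6 FPKM in KO GO, against 9.36 FPKM in WT GO, and Polr2k and Polr2i lower as deposited alone. RNA polymerase II elongation and termination had 24 of 46 above and no call, with a median of -0.06 (0.01 rescaled). Nelfa, of the pausing factor, was at 43.1 FPKM in KO GO and 22.9 FPKM in WT GO, and Supt5, of elongation, at 11.1 FPKM in KO GO and 5.87 FPKM in WT GO. THO and messenger RNA export had 12 of 23 above, with a median of -0.08 (-0.01 rescaled). Alyref, the export adaptor, was called lower at 12.9 FPKM in KO GO, against 32.03 FPKM in WT GO, whereas Thoc5, of the THO complex, was at 10.1 FPKM in KO GO and 5.38 FPKM in WT GO. Nuclear pore and transport receptors had 35 of 53 above, with a median of 0.14 (0.18 rescaled) and the calls Nup93 and Rangap1. Kpna7, the importin of oocytes, was at 391 FPKM in KO GO and 234 FPKM in WT GO. Translation initiation factors had 26 of 49 above, with a median of -0.07 (0.00 rescaled). Eif3j2, lower as deposited alone at 5.04 FPKM in KO GO, against 11.4 FPKM in WT GO, and its near-identical copy Eif3j1 at 10.1 FPKM in KO GO and 5.04 FPKM in WT GO differed in opposite directions, so that reads may have been split between them.

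Storage and decay of maternal messages held 2 calls. In the storage and repression list 17 of 36 lay above, with a median of -0.11 (-0.04 rescaled), and Ybx3 was lower. Eif4enif1, which ties repressed messages to the cap, was at 212 FPKM in KO GO and 118 FPKM in WT GO. In the deadenylation and decay list 20 of 45 lay above, with a median of -0.16 (-0.10 rescaled), and Cnot3 was higher. Germ-cell RNA and piRNA genes had 16 of 26 above and no call, with a median of 0.01 (0.07 rescaled). Ddx4, the germ-cell helicase, was at 122.8 FPKM in KO GO and 72.8 FPKM in WT GO, and Mael, a piRNA factor, at 39.5 FPKM in KO GO and 20.2 FPKM in WT GO.

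Chromatin lists lay below or near the median gene. DNA methylation and maternal imprint genes had 8 of 19 above, with a median of -0.23 (-0.16 rescaled). Their calls were Kdm1b higher and Mbd3, of the NuRD complex, lower as deposited alone at 12.5 FPKM in KO GO, against 27.1 FPKM in WT GO. Dppa3, which guards oocyte methylation, was at 40.2 FPKM in KO GO and 68.9 FPKM in WT GO. H3K4 and H3K36 methylation enzymes had 12 of 27 above, with a median of -0.14 (-0.07 rescaled). Kdm1b, a demethylase held by this list too, was its sole call. Within one methyltransferase complex Ash2l was at 24.7 FPKM in KO GO and 13.04 FPKM in WT GO and Dpy30 at 79.3 FPKM in KO GO and 135 FPKM in WT GO. Polycomb genes had 16 of 30 above, with a median of -0.06 (0.00 rescaled). Bap1, the deubiquitinase of H2A, was called higher at 13.2 FPKM in KO GO, against 5.96 FPKM in WT GO, and Suz12, of the methyltransferase complex, was at 45.6 FPKM in KO GO and 88.6 FPKM in WT GO. H3K9 methylation and heterochromatin genes had 11 of 29 above, with a median of -0.21 (-0.13 rescaled), and Sap30 lower as deposited alone (log2 difference -1.06). Remodellers and cohesin-CTCF genes had 27 of 51 above and no call, with a median of -0.03 (0.02 rescaled). Rad21, a mitotic cohesin subunit, was at 16.8 FPKM in KO GO, against 33.1 FPKM in WT GO, in the other direction from its meiotic paralogue Rad21l. Histones had 11 of 26 above and no call, with a median of -0.17 (-0.10 rescaled). Zinc finger genes named Zfp had 162 of 251 above, with a median of 0.05 (0.09 rescaled), 3 calls higher (Zfp97, Zfp473 and Zfp960) and 1 lower (Zfp770).

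Stress and growth lists closed the set. Cytosolic heat shock chaperones had 25 of 33 above, with a median of 0.17 (0.24 rescaled). Hspa8, the constitutive Hsp70, was called higher at 545 FPKM in KO GO, against 268 FPKM in WT GO. It has near-identical copies, and without the length trend the list held no call. Hsp90aa1 stood on the other side. Unfolded protein and amino acid stress genes had 21 of 37 above, with a median of -0.05 (0.02 rescaled). Beside Xbp1 it held Ddit4, an inhibitor of mTOR signalling, higher at 4.98 FPKM in KO GO, against 1.74 FPKM in WT GO. The PI3K, Foxo3 and mTOR list, which shares Ddit4, had 20 of 42 above, with a median of -0.16 (-0.09 rescaled), and Stk11, the kinase upstream of AMPK, lower as deposited alone at 6.16 FPKM in KO GO, against 13.5 FPKM in WT GO. Autophagy and lysosome genes had 27 of 39 above, with a median of 0.17 (0.20 rescaled). Lamp2, of the lysosomal membrane, was called higher at 5.95 FPKM in KO GO, against 2.17 FPKM in WT GO, Optn passed the line after rescaling, and the receptor Sqstm1 was at 37.4 FPKM in KO GO and 19.3 FPKM in WT GO. Ubiquitin-conjugating enzymes had 15 of 32 above, with a median of -0.14 (-0.07 rescaled) and Ube2s as the sole call. Id and immediate early genes had 9 of 13 above and no call, with a median of -0.04 (0.03 rescaled), Egr1 at 9.03 FPKM in KO GO and 14.4 FPKM in WT GO and Dusp1 at 33.5 FPKM in KO GO and 19.9 FPKM in WT GO. With the deleted gene Rnaseh1 counted among them, the 4 RNase H genes had a median of -0.25 (-0.19 rescaled). Of these 2 lay above the median gene and 2 below, with Rnaseh1 lowest at a log2 difference of -2.81.

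The structure of the transcript moved with the direction of the difference. Genes called higher in KO GO had a median of 11 exons, genes called lower 5, and all genes compared 9. Of the higher genes 35.2% had more than 16 exons, of the lower genes 2.5%, and of all genes 20.04%. Median transcript length was 3033 nt for higher, 1784.5 nt for lower and 2960 nt for all genes, and the gene span was 28984, 11797 and 24052 bp in the same classes. Lower calls were concentrated in short genes with few exons. Among 636 genes with transcripts of up to 1000 nt 7.08% were called lower, against 2.03% of all genes, with a rescaled median of -0.40. Among 2011 genes of more than 16 exons 1.59% were called higher and 0.249% lower, with a rescaled median of 0.07. Exon number ordered the medians within length classes above 1000 nt, but not below. Up to 1000 nt the rescaled median was -0.40 in 255 genes of up to 3 exons and -0.41 in 366 genes of 4 to 8. For transcripts over 2000 nt and up to 3000 nt the rescaled median was -0.01 in 274 genes of up to 3 exons, 0.05 in 804 genes of 4 to 8 and 0.19 in 1162 genes of 9 or more. Genes of a single exon had a rescaled median of -0.15, and 6.05% of the 215 were called lower. The Spearman rho of the rescaled difference was 0.23 with exon number and 0.12 with log transcript length over 10036 genes. The same length classes were displaced at the other stages, with rescaled medians for transcripts of up to 1000 nt of -0.23 at NGO and -0.37 at FGO. With the length trend removed from the rescaled values of 10036 genes 95 were higher and 110 lower, against 106 and 129 after rescaling alone.

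**Figure D5:**
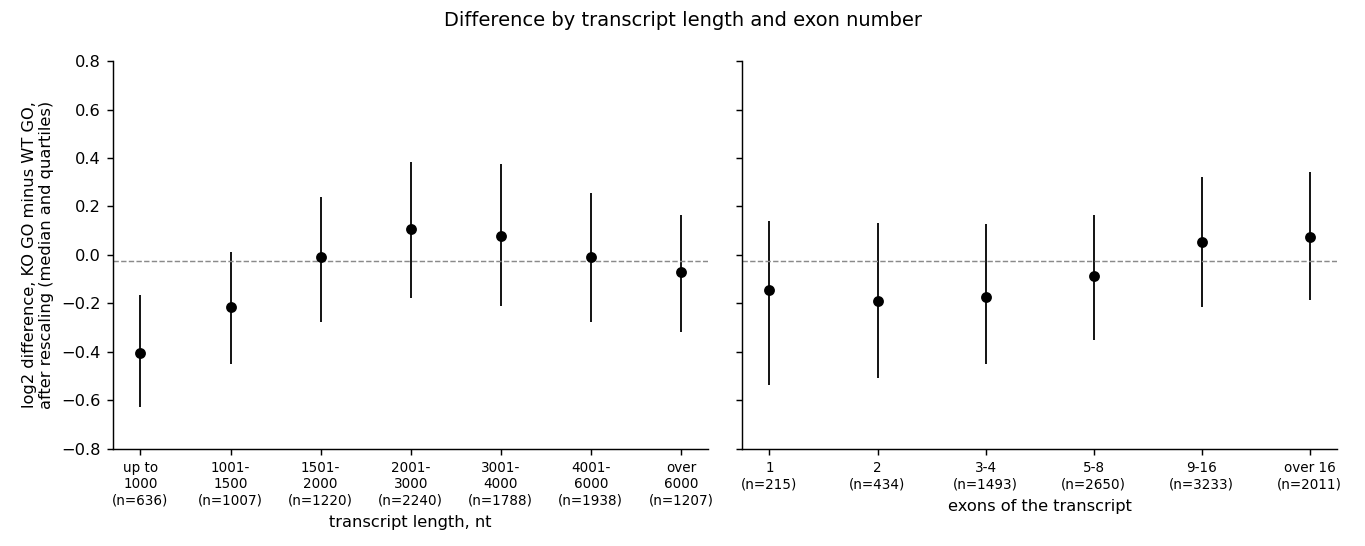
Rescaled log2 difference between KO GO and WT GO (points, median; lines, quartiles) by transcript length in nt (left) and by exon number (right), with the median of all genes dashed. The shortest class lies at -0.40 and both classes over 2000 nt and up to 4000 nt lie highest, at 0.10 and 0.08, while the median is -0.15 for 1 exon and 0.07 for more than 16.

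Promoters were compared because R-loops form readily at GC-rich starts where the new RNA is rich in G. Shown are the 300 bases around the start, 250 before and 50 after, of the 2 most abundant genes per direction that were called at GO in both scalings and at FGO after rescaling and had 1 promoter in RefSeq (GRCm38.p6, from which the sequences come). Capitals mark CpG dinucleotides.
Kdm1b (chr13:47043249-47043548, plus strand): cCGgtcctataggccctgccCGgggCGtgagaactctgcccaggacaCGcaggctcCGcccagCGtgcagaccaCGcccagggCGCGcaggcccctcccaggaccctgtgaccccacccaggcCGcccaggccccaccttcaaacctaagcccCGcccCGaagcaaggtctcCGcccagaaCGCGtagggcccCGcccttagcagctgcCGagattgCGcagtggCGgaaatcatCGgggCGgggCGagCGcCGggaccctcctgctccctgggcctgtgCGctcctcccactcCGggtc
Ddi2 (chr4:141723370-141723669, minus strand): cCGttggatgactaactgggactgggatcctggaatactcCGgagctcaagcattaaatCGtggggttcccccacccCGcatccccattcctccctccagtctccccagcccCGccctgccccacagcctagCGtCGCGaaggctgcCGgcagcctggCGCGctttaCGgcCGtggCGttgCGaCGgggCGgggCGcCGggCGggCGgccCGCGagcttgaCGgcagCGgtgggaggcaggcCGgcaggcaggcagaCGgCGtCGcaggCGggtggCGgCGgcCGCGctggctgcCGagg
Ybx3 (chr6:131388401-131388700, minus strand): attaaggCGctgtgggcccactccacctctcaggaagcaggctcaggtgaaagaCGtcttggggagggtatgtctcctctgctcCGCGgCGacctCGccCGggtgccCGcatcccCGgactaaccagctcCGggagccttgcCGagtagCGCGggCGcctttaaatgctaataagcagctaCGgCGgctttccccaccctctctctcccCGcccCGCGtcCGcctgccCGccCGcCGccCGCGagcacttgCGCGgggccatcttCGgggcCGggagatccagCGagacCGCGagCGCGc
Rab21 (chr10:115315542-115315841, minus strand): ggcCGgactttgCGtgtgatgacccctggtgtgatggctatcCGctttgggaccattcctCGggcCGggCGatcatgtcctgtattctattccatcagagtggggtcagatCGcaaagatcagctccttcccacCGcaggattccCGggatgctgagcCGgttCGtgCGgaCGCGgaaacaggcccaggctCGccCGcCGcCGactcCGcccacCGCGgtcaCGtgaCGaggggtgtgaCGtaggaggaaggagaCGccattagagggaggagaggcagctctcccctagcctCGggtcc
Kdm1b and Ddi2 were higher in KO GO, and Ybx3 and Rab21 were lower. All 4 are CpG-rich, with 26, 35, 34 and 26 CpG in that order and GC contents of 72.3%, 72.7%, 69.0% and 63.7%. The Sp/Klf-type word GGGGCGGGG was found in the windows of Kdm1b, Ddi2 and Ybx3, and the E-box CACGTG in that of Rab21. The word TATAAA was found in none of the 4.

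Over the 6540 genes compared that had 1 promoter, GC content and CpG number differed little by direction. The median GC content was 61.3% for 52 higher genes, 60.3% for 138 lower genes and 60.7% for all, and the median number of CpG was 21 in each class. The first 50 transcribed bases held more G than C in 69.2% of higher genes, 57.2% of lower genes and 64.8% of all genes. In the classes called after rescaling the shares lay further apart, at 75% of 60 higher genes and 51.7% of 89 lower genes. Words were searched on both strands at any position of the 300 bases. TATAAA, the core of the TATA box, was found in 1 of 52 higher genes (1.92%) and in 17 of 138 lower genes (12.3%), against 7.06% of all. In the rescaled classes it was found in 1.67% of higher genes and 15.7% of lower genes. GGGGCGGGG was found in 30.8% of higher genes, 19.6% of lower genes and 22.2% of all. TTCCGG, an ETS-type word, was found in 26.9% of higher genes, 25.4% of lower genes and 31.9% of all. The general E-box CANNTG, which includes CACGTG, was found in 59.6% of higher genes, 60.9% of lower genes and 62.6% of all. CACGTG itself was found in 9.62% of higher genes, 7.97% of lower genes and 10.6% of all, and the homeobox word TAATTG in 3.85% of higher genes, 5.80% of lower genes and 5.24% of all. These counts are descriptions of letters in a window and were not tested.

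Called genes were spread over the genome. Between 256 and 794 genes were compared per chromosome. Counts ran between 0 and 9 higher genes and 3 and 16 lower genes, beside 0.95% and 2.03% of all genes. Chromosome 12, which carries Rnaseh1, had 0 higher and 6 lower genes of 368. Rescaled medians per chromosome lay between -0.09 on chromosome 6 and 0.03 on chromosome 8. The X chromosome, of which an oocyte carries a pair of active copies, had 4 higher and 10 lower genes of 323 and a rescaled median of -0.06. Of 10051 pairs of neighbouring genes compared, 3 pairs were both higher, 6 both lower and 5 opposite. Zfp960 and Zfp97 with the adjoining Gm51425 made up 2 of the pairs that were both higher.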

How the data were processed

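Polyadenylated RNA was measured by Smart-seq2 in 12 samples of 10 mouse oocytes, 2 per genotype and stage, with 150 bp paired reads, per the labels. The submitters' processing notes name Cufflinks 2.2.1, HISAT2 2.2.1 and Trim Galore 0.6.7, and the build mm10. The deposited unit is FPKM, which by the table's name the authors had adjusted to the ERCC spike-in. Its formula, the gene annotation and how 2 samples became 1 column were not stated. Depth is unknown.

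The table held 25912 lines for 25164 symbols. Lines of 2 symbols with spreadsheet error marks were left out, and for 333 symbols on several lines the line of largest mean was kept. Lines of the spike-in and of the mitochondrial genome numbered 0. Genes averaging 1 FPKM or more over the 6 columns were compared (10110). Differences are log2(FPKM + 1), KO minus WT, called at 1 or more in size. With 1 column per group no test was possible. Rescaling used the median of the ratios to a geometric mean column, with factors of 1.22 for KO GO and 1.29 for WT GO.

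The members and gene lists were chosen with earlier results of these data known. Genes named were Rnaseh1, the 30 largest per direction (at least 5 FPKM in the higher GO column and 0.5 in the lower, called in both scalings, 1 line, a proper name), up to 4 members per list and each called member, the 25 of highest mean, genes called alike at GO and another stage, and 2 on each side of the 2-fold line. Sentences on Mbd3l2, Ftdc1, Kit, Gdf9, Ooep, Khdc3 and a few called genes without a proper name were chosen after their values were seen. Transcripts came from GENCODE M21 (99.3% of genes) and positions from RefSeq GRCm38.p6 (99.6%). Near-identical copies were sought with blastn 2.17.0 (at least 95% identity over 50% of the transcript). Alternatives were equal column totals, a pseudocount of 0.1, other filters, other folds and removal of a lowess trend (span 0.3) on transcript length. Some called genes are not reported here. The steps were tested on simulated data. Software was Python 3.11.15, numpy 2.4.6, pandas 2.3.3, statsmodels 0.14.6 and matplotlib 3.10.9.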

Additional observations from a re-analysis of the deposited data

Results flagged for a closer look

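After rescaling, 5 genes were called in opposite directions at GO and at another stage. The difference between the stages was not tested, since each rests on single columns. Ddx47, a helicase of ribosome assembly, had a rescaled log2 difference of -1.17 at GO and 1.98 at FGO, with 21.4 FPKM in KO GO and 52.3 FPKM in WT GO, and 72.99 FPKM in KO FGO and 9.70 FPKM in WT FGO. Clec2f had -2.07 at GO and 5.04 at FGO, where it was listed at 71.9 FPKM in KO and at 0 in WT. 2210409E12Rik, which has near-identical copies, had -1.16 at GO and 1.14 at FGO. Rn45s had 11.3 at GO, where WT was listed at 0, and -1.07 at FGO, with 3963 FPKM in KO FGO and 4819.6 FPKM in WT FGO. Tgoln2 had 2.39 at GO and -1.15 at NGO, and rested on values near 0, with 8.39e-07 FPKM in WT GO and 1.97e-06 FPKM in KO NGO. The differences of Rn45s at GO, Clec2f at FGO and Tgoln2 rest on values at 0 or almost 0 and depend on the pseudocount, so they give no size of change.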

How the results depend on the processing

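The counts of 96 higher and 205 lower genes depended on the scale. The lower count became 129 after rescaling, 119 with equal column totals and 110 with rescaling and the length trend removed together (10036 genes), while the higher count was 106, 138 and 95. A pseudocount of 0.1 in place of 1 gave 212 higher and 458 lower, a 3-fold line 9 and 14, and a 1.5-fold line 659 and 1268. With a mean of at least 5 FPKM, no filter, the mean taken over the 2 GO columns, symbols on 1 line and genes at 0 left out, both counts stayed within 1.5 times. Of 306 named genes 122 were called; 109 of these were called after rescaling, 105 with equal totals and 90 with rescaling and the length trend removed, and none of the 306 changed direction while called. Of 59 list medians 9, 13 and 11 changed sign under these 3 settings. No paired analysis was possible because the table has 1 column per group, and for the same reason no replicate could be left out.

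Limits are the single column per group, the unknown depth and spike-in formula, and values listed at or near 0. Low genes have larger differences on a smaller pseudocount, so counts of calls describe these columns at one setting.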

Other observations

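Among the called genes 14 higher and 31 lower ones have no proper gene name and were left out of the naming rule, and those given here were chosen after their values were seen. A730008H23Rik was at 12.3 FPKM in KO GO and 0.798 FPKM in WT GO, about equal at NGO with 0.693 FPKM in KO and 0.702 FPKM in WT, and at 19.9 FPKM in KO FGO and 1.68 FPKM in WT FGO. Gm10052, a near-identical copy of Hnrnpa1, was at 37.3 FPKM in KO GO and 4.57 FPKM in WT GO. Gm17484, the next gene to Ddhd2, was at 6.55 FPKM in KO GO and 0.00787 FPKM in WT GO. On the lower side, C130074G19Rik was at 0.660 FPKM in KO GO and 7.70 FPKM in WT GO. Ndufs5-ps, a pseudogene, was at 0.258 FPKM in KO GO and 13.8 FPKM in WT GO and was lower at NGO too, and Gm29679 was near 0 in KO GO and at 12.1 FPKM in WT GO, lower in KO at all 3 stages.

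Of the genes listed at 0 in one GO column and at 1 FPKM or more in the other, Trim29 (1.95 FPKM in KO GO) and Defb7 (1.45 FPKM in KO GO) were at 0 in WT GO, beside Rn45s. Smim22 was at 0 in KO GO and 1.60 FPKM in WT GO, beside Smim4.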
